A study of Rattus norvegicus with 6 samples.

Results

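The insulin-like growth factor (IGF) axis was examined in rat BMSCs, stromal cells of the bone marrow that attach in culture and can form bone, fat and cartilage. It was represented by 4 of the 32883 genes in the deposited count table, chosen by Ensembl gene ID: the ligands Igf1 (ENSRNOG00000004517) and Igf2 (ENSRNOG00000020369), the receptor Igf1r (ENSRNOG00000014187) and the binding protein Igfbp3 (ENSRNOG00000061910). The pairing of ID and symbol comes from the list that chose the genes. The count table holds IDs only, and the RefSeq gene table at hand gives an Ensembl ID for 0 of its 47357 genes, so none of the 4 pairs could be checked. All values below belong to the IDs.

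Poly(A) RNA was sequenced from primary cells grown in alpha-MEM with 10% serum. There were 3 libraries from cultures held at 1% O2 for 7 days and 3 from control cultures, labelled normal, with no oxygen value given. Day 7 is also given for the controls. The labels give no strain, age or sex, and are silent on whether the replicates were separate animals or cultures. The p-values therefore rest on the spread between these libraries, which may be technical. For each gene, edgeR estimates this spread partly from all tested genes. The protocol for RNA extraction speaks of muscle, whereas the other labels give BMSCs. Marker genes of marrow stroma, muscle or other cells could not be looked up without gene names, so the labelled cell type was not checked.

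IGF-1 and IGF-2 are secreted peptides related to insulin. They act mainly through the IGF-1 receptor, a tyrosine kinase at the cell surface that signals through insulin receptor substrates to the PI3K-AKT and MAP kinase pathways. IGF-binding protein 3 is secreted as well. It holds IGFs outside the cell, prolongs their life in the circulation and limits or modulates their access to the receptor. In bone, IGFs are made by stromal cells and osteoblasts, are stored in the matrix and favour the growth and matrix production of osteoblast-lineage cells.

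At 1% O2 the receptor and the binding protein were higher and the ligands had few reads in either group, 6 to 58 per library. Igfbp3 rose 2.39-fold and Igf1r rose 1.73-fold, each without overlap between the groups. Such separation was common, since 55.5% of the 12702 tested genes showed it in either direction and 28.2% with all libraries at 1% O2 higher. Igf2 was 1.78-fold higher, on 24 reads in all controls and 49 reads in all libraries at 1% O2. Its call was lost under most other settings. Igf2 passed the filter on low counts through the 1% O2 group alone, which fixed its direction, so no rise is claimed for it. Igf1 did not pass the test, and its libraries overlapped. In bulk RNA, a change in the proportion of cells that express a gene cannot be told apart from a change in RNA per cell.

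The libraries held 13273781 to 13361629 reads assigned to genes in controls and 14879124 to 18533675 at 1% O2. Control replicate 2 stood apart from the other controls, with a mean chi-square per gene of 6.48 and 6.57 against them. That value was 1.51 between Control replicates 1 and 3 and 1.76 to 2.23 within the 1% O2 group, where sampling noise alone gives about 1. Results are therefore also given without this library. The labels name no batch, so a preparation batch that coincided with the groups cannot be told apart from oxygen.

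The sequence upstream of the gene start is shown for the genes that rose, because the study concerns low oxygen and hypoxia-inducible factors (HIF) bind a short core, ACGTG or GCGTG. Sequences are from RefSeq, build GRCr8, matched by symbol (4 of 4 genes), and therefore not in the coordinates of the rn6 build that the submitters name. Capitals mark the HIF core on either strand (CACGT or CACGC on the other strand), with overlapping matches joined. For Igfbp3 the 250 bases before the start are given, chr14:86277945-86278194 on the minus strand. For Igf1r only 30 bases around the match nearest to the start are given, chr1:130959954-130959983 on the plus strand. The start that was used is not the outer end of the RefSeq gene entry for Igf1r, so part of the window may be transcribed.
Igfbp3: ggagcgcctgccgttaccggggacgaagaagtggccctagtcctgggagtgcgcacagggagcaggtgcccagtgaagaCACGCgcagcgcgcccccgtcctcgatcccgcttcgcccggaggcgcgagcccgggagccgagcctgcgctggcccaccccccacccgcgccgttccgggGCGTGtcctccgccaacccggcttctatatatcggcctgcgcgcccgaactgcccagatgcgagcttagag
Igf1r: tgtgcgcgcgggCACGTGtgcgcggccccg

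The Igfbp3 window held 2 matches, beginning 171 and 71 bases before the start. The Igf1r window of 250 bases held 5 matches, beginning 243, 231, 157, 137 and 31 bases before the start, and the last of these is the palindrome CACGTG. The Igf1 window held 0 matches. Igf2 has 2 windows from separate starts, with 2 and 0 matches. The starts used for Igf1 and for both Igf2 windows are also not the outer ends of the RefSeq gene entries, so these windows may hold transcribed sequence. Among 33469 such windows of rat genes 36.7% held at least 1 match. Base composition differs, since the Igfbp3 window is 71.6% G or C and the Igf1r window 79.6%, against 46.8% for Igf1 and a median of 51.2%. Among the 2753 windows with at least 70% G or C, 65.0% held a match. Both shares are for at least 1 match, so they give no scale for the 5 in the Igf1r window. The series title names SP1, a factor that binds GC boxes. The letters GGGCGG, on either strand (CCGCCC), occurred 1 time in the Igf1r window and 1 time in 1 of the Igf2 windows. They occurred 0 times for Igfbp3 and Igf1, and in 30.5% of all windows and 89.8% of those with at least 70% G or C. A match describes letters and shows neither binding nor a cause.

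Igfbp3, which encodes the most abundant IGF carrier of the circulation, had the largest change of the 4 genes. Its level was 33.1, 33.1 and 29.9 CPM in Control replicates 1 to 3 (CPM, read counts per 1000000 reads, after scaling the libraries with TMM factors). It was 67.2, 73.7 and 88.8 CPM in the corresponding numbered libraries at 1% O2. Every library at 1% O2 lay above every control, and the ratio of a 1% O2 library to a control library ranged from 2.03 to 2.97 over the 9 pairs. The mean went from 32.0 ± 1.8 to 76.6 ± 11.1 CPM (SD, n = 3 each). The log2 fold change was 1.25 ± 0.09 (SE), with an adjusted p of 1.05e-07 by edgeR's quasi-likelihood test with Benjamini-Hochberg adjustment over all tested genes. The 95% interval by limma-voom was 1.03 to 1.45 on the log2 scale. Across all 12702 tested genes 45.0% passed the same threshold and 23.1% passed it as higher at 1% O2, so a call as such was common. The size was less common, since Igfbp3 ranked 214 from the highest log2 fold change and 98.3% of tested genes lay below it.

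The libraries at 1% O2 varied more for Igfbp3 than counting allows. Their coefficient of variation was 14.5%, where counting reads alone gives about 2.90%, and the controls had 5.62% against 4.77%. Hypoxia replicate 3 was the highest, with 1276 reads. Without it the log2 fold change was 1.14, and without Hypoxia replicate 1, the lowest of the group, it was 1.34. Without Control replicate 2 it was 1.28.

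Igf1r, the receptor through which both ligands signal, was at 64.1, 51.6 and 65.9 CPM in Control replicates 1 to 3. The 1% O2 values of 99.3, 109.2 and 105.8 CPM all lay above these, and the lowest ratio between a 1% O2 library and a control library was 1.51. The control that stood apart over all genes was also the lowest for this receptor, on 708 reads against 875 and 906. The mean went from 60.5 ± 7.8 to 104.8 ± 5.0 CPM (SD, n = 3 each). The log2 fold change was 0.79 ± 0.08 (SE), adjusted p = 1.96e-06 by edgeR, with a limma-voom 95% interval of 0.63 to 0.96. Without Control replicate 2 the change was smaller, at 0.69, and it still passed (edgeR adjusted p = 1.06e-12). This lower p is not read as stronger evidence, since the estimate of spread changes with the libraries included.

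The other controls lay close to each other for Igf1r. The coefficient of variation was 12.9% in controls against about 3.47% from counting alone, and 4.76% at 1% O2 against 2.48%. Igf1r ranked 599 from the highest log2 fold change, above 95.3% of tested genes. A rise of at least this size that also passed the threshold was found for 581 genes, which is 4.57% of those tested.

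**Figure D1:**
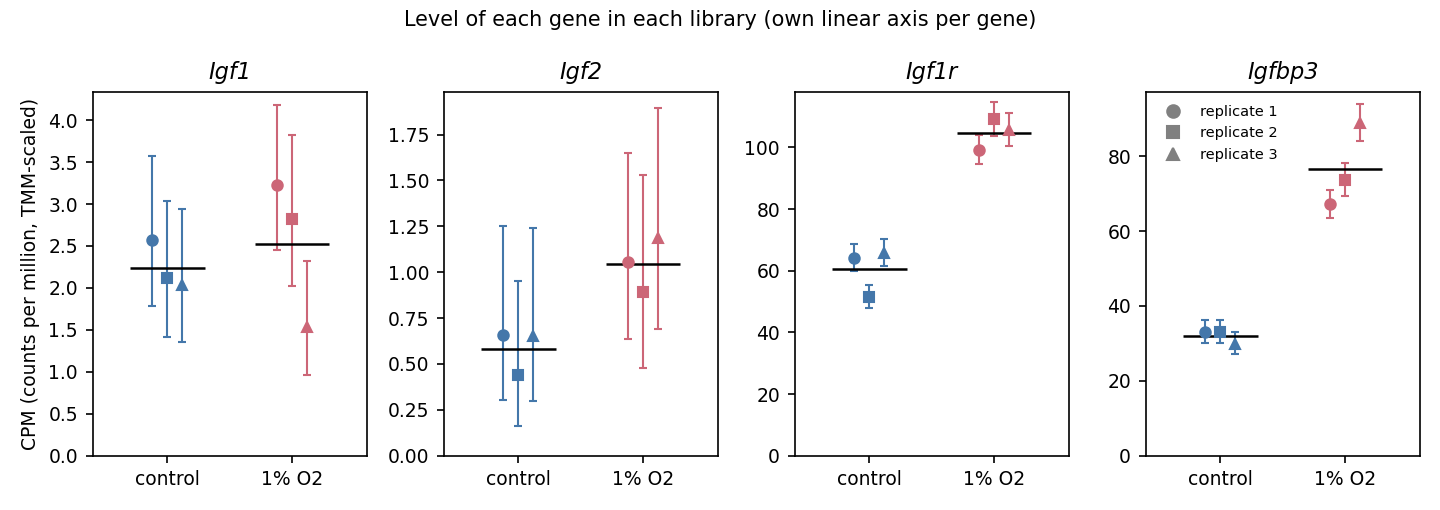
Level of each gene in CPM (vertical axes, linear, 1 scale per gene) in the 3 control and 3 1% O2 libraries; points are libraries, error bars the exact Poisson 95% interval of the read count alone, and horizontal lines the group means. The groups are apart for Igfbp3 and Igf1r by more than the counting intervals, whereas the intervals of Igf1 and Igf2 overlap between the groups.

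Igf2, the ligand that is abundant in fetal tissue, was barely detected. Control replicates 1 to 3 held 9, 6 and 9 reads and the libraries at 1% O2 held 19, 13 and 17. These are 0.660, 0.437 and 0.654 CPM against 1.06, 0.894 and 1.18 CPM. Every 1% O2 library was above every control, but the filter on low counts, described below, had fixed this separation in unscaled CPM. The exact Poisson 95% interval of a single library was wide, for example 0.160 to 0.951 CPM in Control replicate 2 and 0.476 to 1.53 CPM in Hypoxia replicate 2. Pooled over a group, Igf2 stood at 0.584 CPM (0.374 to 0.868) in controls and 1.05 CPM (0.773 to 1.38) at 1% O2, where the intervals cover counting error only.

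The log2 fold change of Igf2 was 0.83 ± 0.32 (SE), edgeR adjusted p = 0.0485, just inside the threshold of 0.05. The coefficient of variation was 21.7% in controls and 13.9% at 1% O2, below the 35.4% and 24.7% from counting alone. The edgeR SE may therefore be too small, and the SE by DESeq2 was 0.53. Igf2 reached the low-count filter, about 0.708 unscaled CPM in 3 libraries, through the 1% O2 group alone, and all 3 controls were below it. A gene that enters in this way had to be higher at 1% O2, without overlap in unscaled CPM. Neither its call nor its separation is therefore counted in support of a rise. Without Control replicate 2 the log2 fold change was 0.66 (edgeR adjusted p = 0.184). Without a filter on low counts the adjusted p was 0.0883 by edgeR, and with DESeq2 it was 0.220. Leaving out any 1 of the 6 libraries ended the call, with edgeR adjusted p-values of 0.0602 to 0.184. The limma-voom interval ran from 0.15 to 1.48, which is 1.11-fold to 2.78-fold. The counting did not state a strand setting, and the RefSeq table lists 2 entries that overlap Igf2 (Mir483 and LOC102548568), so some of these few reads could belong to an overlapping transcript. The same table lists 2 entries that overlap Igf1r (Pgpep1l and LOC134483685) and 0 that overlap Igf1 or Igfbp3.

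Igf1, the main postnatal growth factor of the axis, was also low, with 35, 29 and 28 reads in Control replicates 1 to 3 and 58, 41 and 22 at 1% O2. Scaled, this was 2.57, 2.11 and 2.04 CPM against 3.23, 2.82 and 1.53 CPM. Of the 3 libraries at 1% O2, 2 lay above the highest control, and Hypoxia replicate 3 lay below all 3 controls. The means were 2.24 ± 0.29 and 2.53 ± 0.89 CPM (SD, n = 3 each). The log2 fold change was 0.20 ± 0.26 (SE), adjusted p = 0.556 by edgeR. The limma-voom 95% interval reached from -0.43 to 0.71, so neither a fall to 0.740-fold nor a rise to 1.64-fold is outside it. A difference was not detectable at this depth and spread, which does not show equal levels.

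The direction of Igf1 rested on single libraries. Without Hypoxia replicate 1 the log2 fold change was -0.039 (edgeR adjusted p = 0.924). Without Hypoxia replicate 3 it was 0.44 (edgeR adjusted p = 0.125), and without Control replicate 2 it was 0.16 (edgeR adjusted p = 0.652). The coefficient of variation at 1% O2 was 35.1%, against about 15.7% from counting alone. Hypoxia replicate 3 combined the lowest Igf1 with the highest Igfbp3 of the group, while its Igf1r lay between the others.

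**Figure D2:**
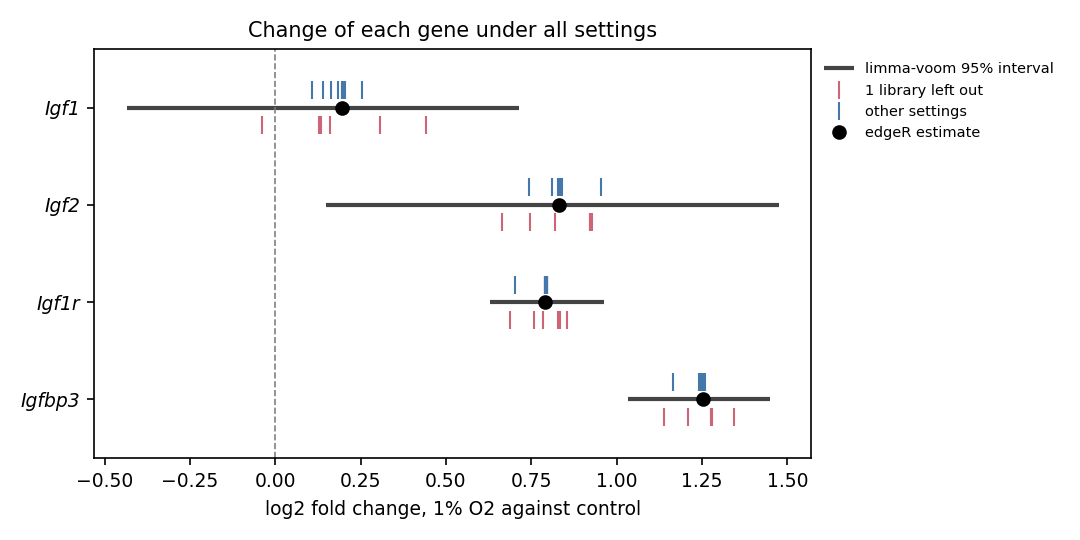
The log2 fold change of 1% O2 against control (horizontal axis) for each gene, with the edgeR estimate as a black point, the limma-voom 95% interval as a grey line, the other settings as blue ticks and the fits without 1 library as red ticks. All ticks of Igfbp3 lie between 1.14 and 1.34 and those of Igf1r between 0.69 and 0.86, while 1 tick of Igf1 lies below 0.

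The scaling between libraries affected sizes but not the calls of Igfbp3 and Igf1r. Without scaling factors, using library totals alone, the log2 fold changes were 1.17 for Igfbp3, 0.70 for Igf1r, 0.74 for Igf2 and 0.11 for Igf1. Under that choice 34.3% of all called genes were higher at 1% O2, in place of 51.3%. Thinning every library to 13273781 reads, the depth of the smallest, gave 1.26 for Igfbp3 and 0.79 for Igf1r, so both changes were as large at equal depth.

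**Figure D3:**
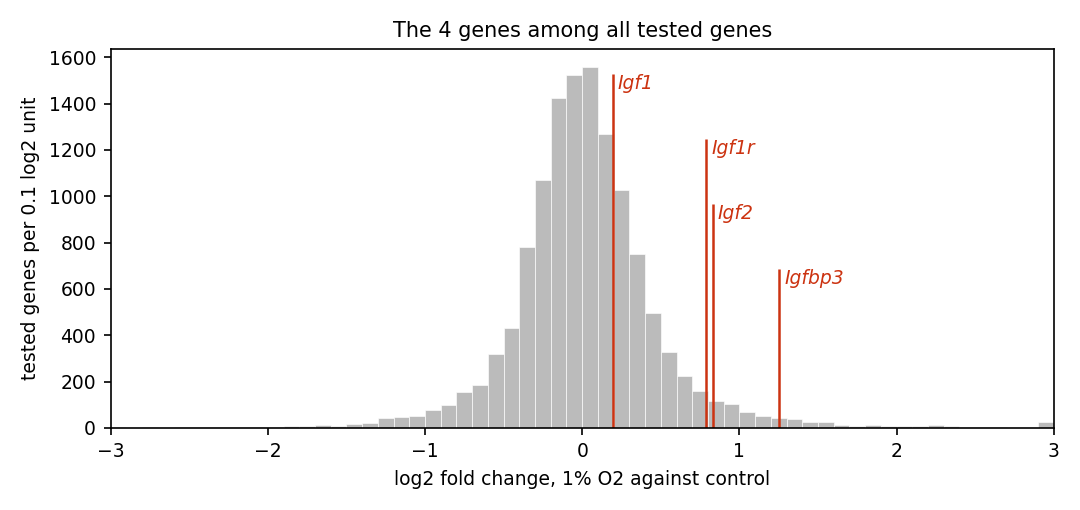
Number of tested genes (vertical axis) in bins of 0.1 log2 fold change of 1% O2 against control (horizontal axis), with each of the 4 genes as a red line whose height has no meaning; 26 genes beyond 3 units are drawn in the end bins. Igf1 lies within the bulk of the genes, Igf1r above 95.3% of them and Igfbp3 above 98.3%. Igf2 lies above 95.8%, but it entered the test through the 1% O2 group alone, so its place is not read.

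Ratios of read counts within a library do not depend on how libraries are scaled against each other, and the length of each gene cancels when groups are compared. They were taken for the 3 pairs of genes with at least 10 reads in every library, which leaves out Igf2. The ratio of Igfbp3 to Igf1r reads was 0.515, 0.641 and 0.455 in Control replicates 1 to 3 and 0.677, 0.675 and 0.840 at 1% O2. The mean log2 ratio of binding protein to receptor reads was 0.45 higher at 1% O2 (1.37-fold), without overlap. The gap between the groups was small, from 0.641 in Control replicate 2 to 0.675 in Hypoxia replicate 2. Igfbp3 by itself also did not overlap, and how often ratios of other gene pairs separate the groups was not computed. Without Control replicate 2 the difference was 0.59 on the log2 scale.

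Igfbp3 to Igf1 was 12.9, 15.7 and 14.7 reads per read in controls and 20.8, 26.1 and 58.0 at 1% O2, again without overlap. The mean log2 ratio was 1.14 higher at 1% O2 (2.20-fold). Without Hypoxia replicate 3, which has only 22 Igf1 reads, it was 0.70 higher, and without Control replicate 2 it was 1.198 higher. Igf1r to Igf1 was 25.0, 24.4 and 32.4 in controls and 30.8, 38.7 and 69.0 at 1% O2, and here the groups overlapped. Its mean log2 ratio was 0.69 higher, 0.35 higher without Hypoxia replicate 3 and 0.61 higher without Control replicate 2. By an exact permutation test, two-sided, p was 0.1 for both Igfbp3 ratios and p = 0.2 for Igf1r to Igf1, or 0.15, 0.15 and 0.2 after Benjamini-Hochberg adjustment over the 3 pairs. The smallest p that 3 libraries against 3 allow is 0.1, so none of these ratios could pass 0.05.

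**Figure D4:**
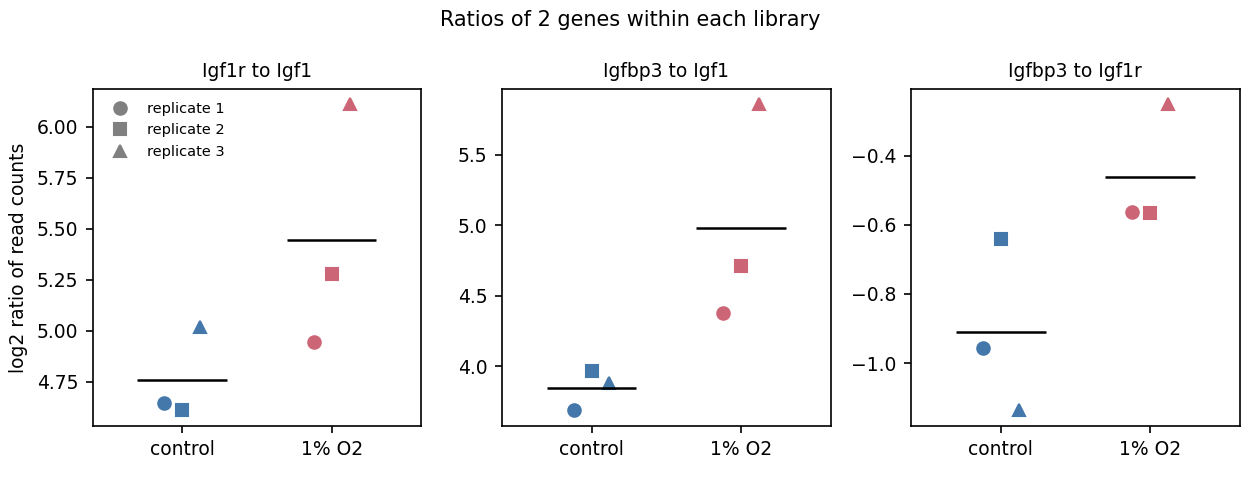
Log2 ratio of the read counts of 2 genes within each library (vertical axes, 1 scale per panel) in control and 1% O2 libraries, with group means as lines. Igfbp3 to Igf1 and Igfbp3 to Igf1r do not overlap between the groups, as Igfbp3 by itself does not. How often ratios of other gene pairs do so was not computed. Hypoxia replicate 3 is the highest library in every panel.

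The profiles of the 4 genes over the 6 libraries were compared after centring log2 CPM on each gene's own mean. About 2 reads were added to each count before taking logs, which shrinks the differences of genes with few reads, such as Igf2. The root mean square difference was 0.29 between Igf1r and Igfbp3, 0.49 between Igf1 and Igf1r and 0.72 between Igf1 and Igfbp3. No order is read for Igf2, which entered through the 1% O2 group alone and whose counting error was about 35.4% of its level in controls and 24.7% at 1% O2. Among 11352 other tested genes whose average log2 CPM reached 1, the gene nearest to Igf1r was ENSRNOG00000004861, at a difference of 0.019. It went from 11.7 ± 1.7 to 20.4 ± 1.1 CPM (SD, n = 3 each), and 87 genes lay within 0.1 of Igf1r. The gene nearest to Igf2 was ENSRNOG00000045553, at 0.066, which is smaller than the counting error of Igf2 itself and does not single this gene out. For Igfbp3 the nearest gene lay at 0.077 and 5 genes lay within 0.1. For Igf1 the nearest lay at 0.14 and 0 lay within 0.1. The counting error of Igf1 was about 18.1% of its level in controls and 15.7% at 1% O2, so this does not mark its profile as distinct. The files do not pair these IDs with names. They were picked for likeness in these same libraries, so their changes are a description, without a test.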

How the data were processed

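The authors deposited unnormalized read counts, 1 row for each Ensembl gene ID. The submitters' processing notes name HISAT2, featureCounts, DESeq2 and the rat build rn6, and the labels' protocols name a stranded poly(A) kit. Not given in the sources used here are versions, annotation release and strand setting. Each table column matched 1 library name in the labels.

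The comparison used edgeR 4.0.16 (R 4.3.3): filterByExpr (minimum count 10, minimum total count 15), which kept 12702 genes and all 4 IGF genes, TMM factors, and the two-sided quasi-likelihood F-test with group as the only term. Benjamini-Hochberg adjustment ran over the whole set of tested genes, and the threshold was 0.05. An SE is the log2 fold change divided by the square root of F. Intervals are from limma-voom (limma 3.58.1). CPM and ratios were computed here. The fit was tested on simulated data. Alternatives were other scalings and filters, DESeq2 1.42.0, limma-voom, robust dispersion, a replicate block, thinning and leaving out each library.

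The 4 genes and all lists were chosen with earlier results of these data known. The named genes were the 4 members and, for each, the tested gene with the most similar profile, of which at most 2 that rose are given by ID. Lists of other IGF pathway genes and of cell type markers, set by symbol, were not run because IDs could not be named.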

Additional observations from a re-analysis of the deposited data

How the results depend on the processing

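Igfbp3 and Igf1r kept their direction and call under all 15 alternatives. Their log2 fold changes ranged from 1.14 to 1.34 and from 0.69 to 0.86, and these are also the ranges when 1 library was left out. Igf2 was higher under all 14 alternatives that tested it, but most reuse the filter that it passed through the 1% O2 group alone. This direction is therefore not counted in support of a rise. Igf2 kept its call under only 3 of the 14 (median-of-ratios factors, limma-voom and thinning). It lost the call with library totals alone (0.74), no low-count filter (0.84), robust dispersion (0.83), DESeq2 (0.84) and when any library was left out (0.66 to 0.93). A filter of 1 CPM in 3 libraries removed Igf2 from the test. Igf1 passed under 0 of 15 alternatives, and leaving out 1 library gave -0.039 to 0.44. The count of 5718 changed genes ranged from 4580 to 6071, apart from 599 with a minimum log2 fold change of 1, and from 4626 to 6017 with 1 library left out. The log2 ratio differences kept their direction when 1 library was left out, at 0.35 to 0.94 for Igf1r to Igf1, 0.70 to 1.44 for Igfbp3 to Igf1 and 0.34 to 0.59 for Igfbp3 to Igf1r. With the replicate number as a block, 5295 genes changed and Igf2 (0.83, adjusted p = 0.0701 by edgeR) lost its call. The labels state no pairing, and deviations of same-numbered libraries correlated at -0.044, -0.051 and 0.0052, so the numbers were not taken as pairs. Depth limits Igf1 and Igf2, with 22 to 58 and 6 to 19 reads per library.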
